A study of Mus musculus with 20 samples.

Results

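Lysophosphatidic acid (LPA) and sphingosine-1-phosphate (S1P) are lipids that signal between cells through G-protein-coupled receptors. The 10 genes described here encode the LPA-producing enzyme autotaxin (Enpp2), both sphingosine kinases (Sphk1 and Sphk2), the S1P exporter (Spns2), the S1P lyase (Sgpl1), the S1P receptors S1pr1 and S1pr3, and the LPA receptors Lpar1, Lpar4 and Lpar6. They were chosen by gene symbol from the 24062 symbols of the count files, with earlier results of these libraries in view, so their own tests below describe them and support no claim that the group was singled out by the data. All 10 were found and all 10 passed the filter on low counts, as did 19209 genes in all.

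The libraries were made from RNA of lymphatic endothelial cells (LECs), the cells that line lymphatic vessels, sorted as CD31+podoplanin+ cells from the ear skin of wild type C57BL/6 mice at post natal day 56 (the substrain is C57BL/6N in the methods of the study). Ears were taken at the zeitgeber times ZT1, ZT7, ZT13 and ZT19, that is 1, 7, 13 and 19 h after the lights came on, with 5 libraries per time point, each from the pooled ears of a pair of animals. The question was whether transcript levels in dermal LECs change over the day, and no group carried a treatment or an allele.

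S1P is made inside cells by phosphorylation of sphingosine, leaves endothelial cells through Spns2 and is broken down by the lyase or by phosphatases. LECs are known as a source of the S1P in lymph, which lymphocytes follow out of lymph nodes through S1pr1. Autotaxin is a secreted lysophospholipase D that makes LPA outside the cell from lysophosphatidylcholine, and it is known from the high endothelial venules of lymph nodes, where LPA promotes the entry of lymphocytes.

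Between 4475111 and 42002363 reads per library were counted on genes (median 9379794). The share of reads on genes, among those on genes or on no feature, was 20.2 to 29.5% at ZT1, 12.7 to 62.3% at ZT7, then 20.1 to 79.9% at ZT13 and 35.0 to 81.6% at ZT19. It moved with the time points, and ZT7 replicate 2 (62.3%) and ZT13 replicate 5 (79.9%) stood apart from the other libraries of their time points, so the tests were repeated without both. Since 3 ZT19 libraries with shares of 64.0 to 81.6% stay in that fit, it holds such high shares at ZT19 alone. Of 11 LEC markers, 10 were detected in every library, with Mmrn1 the highest, and Ccl21a was at 0 in all 20. The LEC markers summed to 91261 to 122346 normalized counts per library (counts scaled to a common library size) at ZT1 and 53817 to 116070 at ZT7. At ZT13 they summed to 89945 to 132589.6 and at ZT19 to 79754 to 98667. From ZT1 to ZT7 the median fitted log2 difference of the 10 tested LEC markers was -0.53, against 0.05 for all genes. The part of this in the courses of the genes described here was not tested. Keratinocyte markers, which a pure sort would lack, summed to 35506 to 74114 at ZT1, 65438 to 183418 at ZT7, then 11301 to 31934 at ZT13 and 92655 to 196754 at ZT19, and Krt14 was the highest of them. In bulk samples, fewer cells of a type and less RNA per cell cannot be told apart.

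The levels of the 10 genes spanned a wide range. Divided by the length of the exons, S1pr1 stood at 1368 ± 439 normalized counts per kb (mean ± SD, n = 20), above 98.3% of the 19002 tested genes that have a length. Spns2 followed at 533 ± 149.6 per kb, and Enpp2 at 182 ± 115 per kb. S1pr1 exceeded Spns2 in 20 of 20 libraries and Spns2 exceeded Enpp2 in 20 of 20, so the first and second places were the same in every library.

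Below them the order was less firm. Sphk1 had 129 ± 50 per kb and was passed by Enpp2 in 11 of 20 libraries. That order depended on the time point, with Enpp2 above Sphk1 in 4 of 5 libraries at ZT1, 1 of 5 at ZT7 and 3 of 5 at both ZT13 and ZT19. The next places went to Sgpl1 with 89.4 ± 37.6 per kb and to Sphk2 with 85.4 ± 55 per kb. Sphk1 was above Sgpl1 in 16 of 20 libraries and Sgpl1 above Sphk2 in 12 of 20. The LPA receptors came last together with S1pr3. Lpar6 had 57.3 ± 21.6 per kb, Lpar1 47.5 ± 56.8 per kb and Lpar4 18.4 ± 20.2 per kb. S1pr3 had 7.68 ± 7.58 per kb, above 20.9% of genes, and Lpar4 exceeded it in 15 of 20 libraries.

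**Figure D1:**
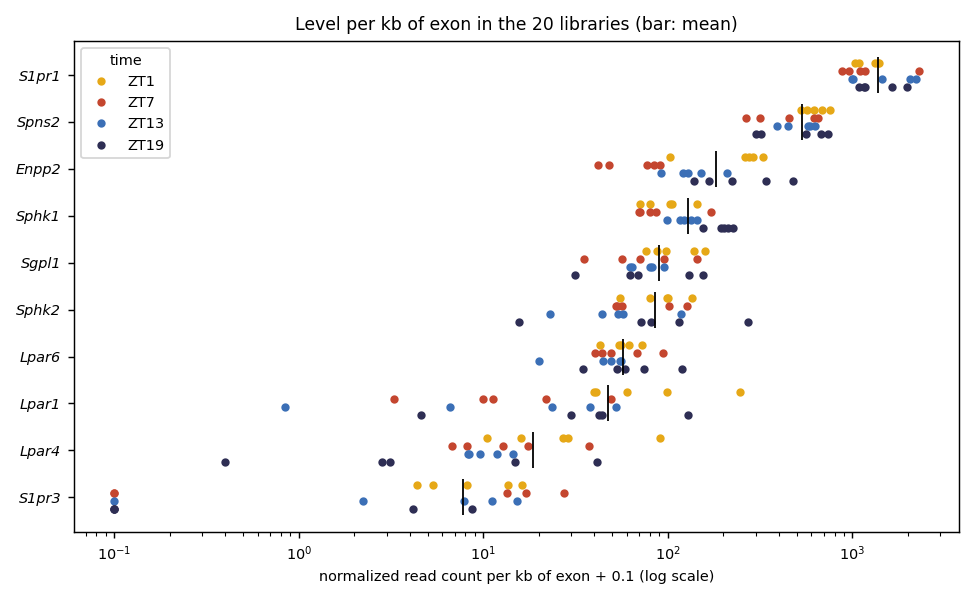
Normalized read counts per kb of exon (x axis, log scale after adding 0.1 so that libraries at 0 can be drawn) of the 10 genes in the 20 libraries, coloured by time point, with a bar at the mean. S1pr1 lies to the right of Spns2 in 20 of 20 libraries, and S1pr3 is the lowest by mean, with 6 libraries at 0.

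Enpp2, on chromosome 15 (chr15:54838901-54952892, minus strand, GRCm38), was the gene of the 10 with the clearest differences over the day. Its normalized counts were 1509.5, 1585, 1662, 594 and 1896 in ZT1 replicates 1 to 5 and 483, 520.2, 446, 278 and 241 in ZT7 replicates 1 to 5. At ZT13 they were 741, 695, 529.6, 877 and 1208, and at ZT19 they were 2764, 1967, 1280.3, 797 and 968. Every ZT7 library lay below every library of the other time points. ZT1 replicate 4 was far below the other 4 ZT1 libraries, and ZT19 ranged from 797 to 2764, so that ZT1, ZT13 and ZT19 overlapped. Enpp2 shares 345 bp (5.97% of its exons) with Gm26684, a long noncoding RNA gene on the other strand that was not analysed here, and the kit does not mark the strand.

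The means of Enpp2 were 1449 ± 499.6 at ZT1, 394 ± 126 at ZT7, then 810.2 ± 255 at ZT13 and 1555 ± 810.1 at ZT19 (SD, n = 5), a ratio of 3.95 between the highest and the lowest mean. Among the 4 time points, Enpp2 was the only 1 of the 10 genes to pass the threshold (adjusted p = 0.0265 by the quasi-likelihood test of edgeR, adjusted by Benjamini-Hochberg), where 0.422% of all tested genes passed. Since the genes were listed with these results in view, nothing about the group is read from that count here or in the comparisons that follow. DESeq2 gave an adjusted p of 0.00121 for Enpp2 and called none of the other 9, with 3.45% of all genes called. At an unadjusted p under 0.05 in edgeR stood 3 of the 10 and 15.7% of all genes.

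The call for Enpp2 was lost when any 1 of 4 libraries was left out. With each library left out in turn, the adjusted p of the edgeR test ranged from 0.0132 to 0.0806, and it stayed under 0.05 in 16 of 20 fits. It was lost without ZT7 replicate 3, 4 or 5 or ZT13 replicate 4. Without ZT7 replicate 2 and ZT13 replicate 5, an alternative chosen after seeing the data, it was 0.0126 (4.28% of all genes called), and with on-gene read share fitted as a further term it was 0.0261. In all, the call was made in 20 of 25 edgeR alternatives, and the other loss was the fit with the replicate number as a block (adjusted p = 0.0702).

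For a curve with a period of 24 h, the log2 amplitude of Enpp2 was 1.07 with its peak at 20.5 h and an edgeR adjusted p of 0.0996. None of the 10 genes passed (0 called by edgeR), with 0.0312% of all tested genes called. At an unadjusted p under 0.05 stood 3 of the 10 and 9.23% of all genes, and DESeq2 called 1 of the 10 and 0.741% of all genes. Without ZT7 replicate 2 and ZT13 replicate 5 Enpp2 alone of the 10 passed, with an edgeR adjusted p of 0.0437 (0.102% of all genes called), the only 1 of 25 edgeR alternatives to pass (0.0437 to 0.378).

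Between ZT1 and ZT7, Enpp2 differed by -1.88 on the log2 scale (SE 0.38), with an edgeR adjusted p of 0.193 and a DESeq2 adjusted p of 0.00625. Its groups did not overlap, as in 1.75% of all tested genes. None of the 10 was called by edgeR, with 0.00521% of all genes called. At an unadjusted p under 0.05 stood 2 of the 10 and 4.97% of all genes, and DESeq2 called 1 of the 10 and 0.113% of all. Of 26 edgeR alternatives 1 passed for Enpp2 in this pair, that with on-gene read share as a further term (adjusted p = 0.0247). Without ZT7 replicate 2 and ZT13 replicate 5 the edgeR adjusted p was 0.91, and with each library left out in turn 0 of 20 fits passed (0.0555 to 0.9997), while the log2 difference stayed between -2.09 and -1.71 in all 26.

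Between ZT7 and ZT19, Enpp2 differed by 1.98 on the log2 scale (SE 0.38), with adjusted p-values of 0.0744 by edgeR and 0.000221 by DESeq2. The ZT7 and ZT19 libraries did not overlap, which was true of 1.94% of all genes. Again none of the 10 was called by edgeR, with 0.0156% of all genes called. At an unadjusted p under 0.05 stood 2 of the 10 and 19.7% of all genes, and DESeq2 called 2 of the 10 (Enpp2 and Sphk1) and 11.8% of all. Of 26 edgeR alternatives 3 passed for Enpp2 (adjusted p 0.0215 to 0.38 over all). Without ZT1 replicate 4 the edgeR adjusted p was 0.0469, without ZT19 replicate 4 it was 0.03, and without ZT7 replicate 2 and ZT13 replicate 5 it was 0.0215, in a fit where 12.1% of all genes were called. With on-gene read share as a further term the log2 difference was 1.33 and the edgeR adjusted p 0.21, and in the fit of only this pair the adjusted p was 0.38.

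The other pairs differed less. The log2 difference of Enpp2 was 1.04 from ZT7 to ZT13, where the groups also did not overlap (1.0% of all genes), 0.94 from ZT13 to ZT19, -0.84 from ZT1 to ZT13 and 0.10 from ZT1 to ZT19. The last turned to -0.62 with on-gene read share as a further term. It was also below 0 without ZT1 replicate 4, ZT19 replicate 1 or ZT19 replicate 2. From ZT13 to ZT19 the edgeR adjusted p of Enpp2 was 0.157, and 0.0419 without ZT7 replicate 2 and ZT13 replicate 5 (10.6% of all genes called). With on-gene read share as a further term that difference was 0.46 with an edgeR adjusted p of 0.63, and 1 of 26 alternatives passed. In the edgeR fit with all libraries none of the 10 genes was called in these pairs.

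Between ZT1 and ZT13 0.0208% of all genes were called by edgeR and 0.615% by DESeq2, which called 0 of the 10. An unadjusted p under 0.05 was found for 2 of the 10 and 5.37% of all genes, and 0 of the 10 had groups that did not overlap (1.47% of all genes). Between ZT7 and ZT13 edgeR called 0.0937% and DESeq2 0.668% of all genes, again 0 of the 10 by either, and 1 of the 10 had an unadjusted p under 0.05, as had 2.59% of all. Between ZT13 and ZT19 edgeR called 0.588% and DESeq2 9.34% of all genes, 0 of the 10 by either, and 2 of the 10 had an unadjusted p under 0.05, as had 19.2% of all.

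**Figure D2:**
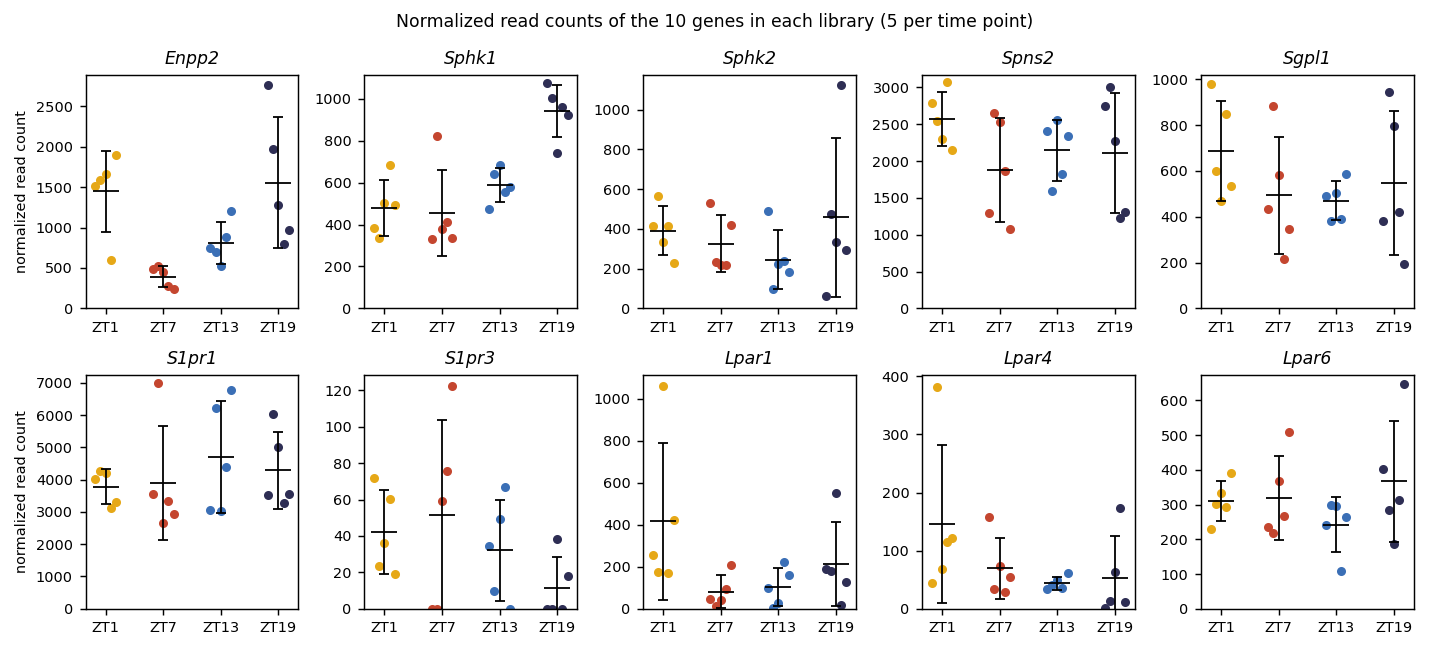
Normalized read counts (y axis, from 0, own scale per gene) of the 10 genes in each library at ZT1, ZT7, ZT13 and ZT19, with the mean and SD (n = 5) as bars. For Enpp2 the 5 ZT7 points lie below all points of the other time points, and for Sphk1 the 5 ZT19 points lie above all ZT1 and ZT13 points.

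Fibroblast markers shared part of the time course of Enpp2. Of 9 markers, 7 had their lowest mean at ZT7, and 1 (Ccdc80, edgeR adjusted p = 0.0128) differed among the 4 time points. Their summed level was 6365 to 18485 at ZT1, 957 to 4545 at ZT7, then 735 to 9745 at ZT13 and 1249 to 13187 at ZT19, with Dcn the highest and no marker at 0 in all libraries. The LEC sum was lowest at ZT7 by median as well, at 83871, against 97893 at ZT1, 95548 at ZT13 and 87217 at ZT19. Of 11 LEC markers, 3 had their lowest mean at ZT7 and 5 at ZT19. Within time points, Enpp2 and the fibroblast list were related by Pearson r = 0.0301 (n = 20, permutation p = 0.902, adjusted p = 0.902) and Spearman rho = 0.0391. With the blood endothelial list, summed to 5349 to 15810.1 normalized counts, the relation was r = -0.526 (permutation p = 0.0353, adjusted p = 0.163) and rho = -0.451 (permutation p = 0.0793, adjusted p = 0.317), with r = -0.169 without the 2 libraries farthest from the median of that list. With on-gene read share regressed out it was r = -0.194 (permutation adjusted p = 0.81). Adipocyte markers, another known site of Enpp2 expression, summed to at most 468 normalized counts in any library, leukocyte markers to at most 881. The part of any of these in the course of Enpp2 was not tested.

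**Figure D3:**
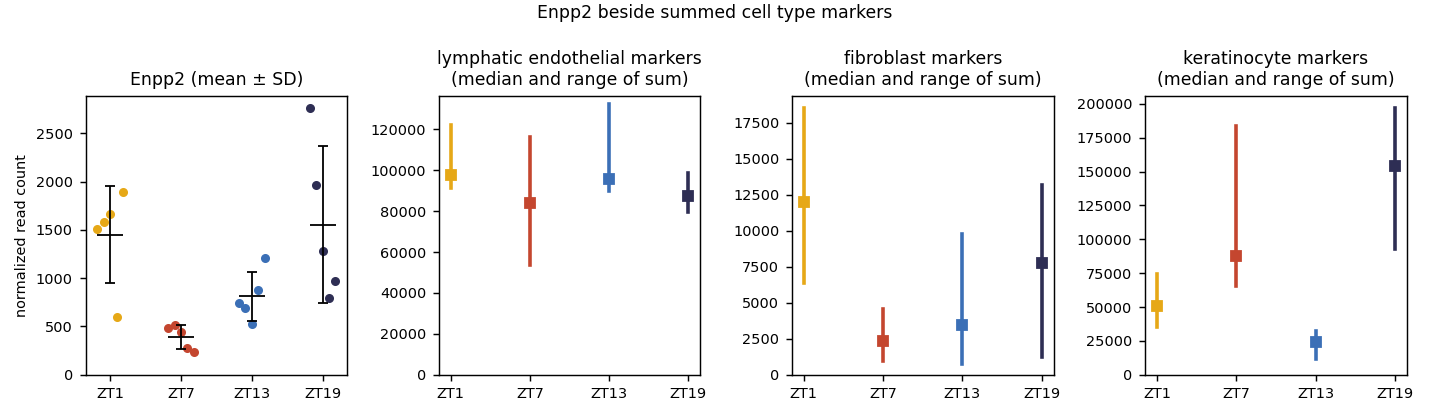
Enpp2 in each library (left, normalized read count with mean and SD, n = 5) beside the summed normalized counts of the LEC, fibroblast and keratinocyte marker lists (median as a square, lowest to highest library as a line) at the 4 time points. The LEC sum and the fibroblast sum are both lowest at ZT7 by median, as Enpp2 is, while the keratinocyte sum is lowest at ZT13.

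Sphk1 and Sphk2 both phosphorylate sphingosine to S1P, Sphk1 mainly in the cytosol and at the plasma membrane, Sphk2 also in the nucleus and mitochondria. Sphk1, on chromosome 11 (chr11:116530925-116536674, plus strand), had normalized counts of 382, 337, 501, 684 and 491 at ZT1 and 331, 819.8, 381, 409.9 and 337 at ZT7. They were 474, 639, 684, 554 and 581 at ZT13 and 1074, 1004, 742, 959.6 and 924 at ZT19. All ZT19 libraries were above all ZT1 and ZT13 libraries, and 4 of the 5 ZT7 libraries lay at or under 409.9, while ZT7 replicate 2 reached the range of ZT19. Sphk1 shares 192 bp (4.02% of its exons) with Gm29292 on the other strand, not analysed here.

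The means of Sphk1 were 479 ± 134, 456 ± 206, 587 ± 80.7 and 941 ± 124 at ZT1, ZT7, ZT13 and ZT19 (SD, n = 5). Among the 4 time points the edgeR adjusted p was 0.184 and the DESeq2 adjusted p was 0.0726. From ZT1 to ZT19 the log2 difference was 0.97 (SE 0.30, adjusted p = 0.0936 by edgeR and 0.0273 by DESeq2), and none of the 10 genes was called by edgeR, with 0.0156% of all genes called. In that pair 1 of the 10 had an unadjusted p under 0.05, as had 21.6% of all genes, and DESeq2 called 1 of the 10 and 10.5% of all. Groups that did not overlap were found for 8.56% of all genes in that pair and for 2.48% between ZT13 and ZT19.

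From ZT7 to ZT19 Sphk1 differed by 1.04 on the log2 scale (SE 0.30, adjusted p = 0.107 by edgeR and 0.0288 by DESeq2). It was called by edgeR only in the fit without ZT7 replicate 2 and ZT13 replicate 5, in which all high on-gene shares lie at ZT19 and the genes called between ZT1 and ZT19 rose from 3 to 1845. There the edgeR adjusted p was 0.0181 among the 4 time points (4.28% of all genes called in that fit), 0.0233 from ZT1 to ZT19 (9.37% called) and 0.022 from ZT7 to ZT19, while over all edgeR alternatives the highest adjusted p-values were 0.606, 0.561 and 0.448. With on-gene read share as a further term, the log2 difference from ZT1 to ZT19 was 0.69 with an edgeR adjusted p of 0.561.

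Keratinocyte markers were also highest at ZT19 by mean in 8 of 12 genes, and 6 of 12 differed among the 4 time points by edgeR, with no marker at 0 in all libraries. They were lowest at ZT13 in 11 of 12, where the mean of Sphk1 stood second. Their summed ranges are given above, and their part in the course of Sphk1 was not tested.

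Among the 8 genes whose promoter windows could be searched, Sphk1 alone held CACGTG, the E-box bound by the clock factors CLOCK and BMAL1. Enpp2 and S1pr1 were not searched. RefSeq windows of 250 bases before to 50 after a start site (GRCm38.p6) were at hand for these 8 genes, in 15 windows, and the hexamer, which reads alike on both strands, occurred in at least 1 window of 8.09% of the 27025 genes with a window. Sphk1 had more of the 15 windows than any other gene, and the share of 8.09% makes no allowance for the number of windows. The hexamer lies 95 bases before 1 of the annotated Sphk1 start sites and is shown because it is the only such match in the windows searched. The window chr11:116532194-116532493 on the plus strand reads, with the hexamer in capitals:

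Sphk1 promoter window: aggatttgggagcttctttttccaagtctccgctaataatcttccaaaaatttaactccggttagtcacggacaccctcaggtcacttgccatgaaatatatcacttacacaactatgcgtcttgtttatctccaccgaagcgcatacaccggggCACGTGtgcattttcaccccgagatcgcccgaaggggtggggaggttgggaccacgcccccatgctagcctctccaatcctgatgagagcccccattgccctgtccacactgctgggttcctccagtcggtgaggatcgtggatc

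The second window that holds it starts 7 bases further on and overlaps this one. The related hexamer CACGTT occurred in 0 of the 8 genes (5.44% of all genes) and the D-box TTATGTAA in 0 of the 8 (1.11%), both strands searched. AGGTCA, the core of sites for ROR and REV-ERB receptors, occurred in the windows of Sphk1 and Spns2 (18.1% of all genes). GGGCGG, a GC box, occurred in Sphk2, Sgpl1, S1pr3, Lpar1 and Lpar4 (38.2%). A match describes the letters in the window and no bound factor, and a missing match says only that the letters are not there.

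Sphk2, on chromosome 7 (chr7:45709467-45718002, minus strand), was the more variable kinase. Its normalized counts were 414, 564, 332, 413 and 229.9 at ZT1, 529.7, 235, 220.0, 218 and 422 at ZT7, then 492, 95.4, 222, 237 and 183 at ZT13 and 64.3, 477, 337, 1123 and 296 at ZT19. Both its lowest and its highest library were at ZT19, and all time points overlapped. The edgeR adjusted p among the 4 time points was 0.694. Per kb, Sphk1 exceeded Sphk2 in 14 of 20 libraries.

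Part of the Sphk2 exons lies over neighbours on the other strand. It shares 539 bp, 12.96% of its exons, with Dbp, a transcription factor that is a direct output of the clock, and 373 bp (8.97%) with the ribosomal protein gene Rpl18. The kit does not mark the strand, so reads on the shared bases cannot be assigned, and the Sphk2 counts are uncertain to that extent. The mean of Dbp was 237 ± 41.5 at ZT1, 766 ± 156 at ZT7, then 457 ± 70.6 at ZT13 and 192 ± 60.1 at ZT19 (normalized counts, SD, n = 5, edgeR adjusted p = 0.00409).

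Spns2 exports S1P across the plasma membrane, and on chromosome 11 (chr11:72451638-72489904, minus strand) it was the second most abundant of the 10 genes. Its normalized counts were 2787, 2536, 2305, 3073 and 2150.3 at ZT1 and 1297, 2649, 2524, 1858 and 1083 at ZT7. They were 2406, 1591, 2559, 1828 and 2334 at ZT13 and 2749, 3004, 2276, 1233 and 1308 at ZT19. ZT1 was the most even time point, with a mean of 2570.4 ± 370.1, whereas ZT7 and ZT19 each held libraries well above and well below their mean and all time points overlapped.

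The highest mean of Spns2 was 1.37 times the lowest, from ZT7 (1882 ± 704) to ZT1. The fitted log2 difference was 0.45 higher at ZT1 (SE 0.33), and the edgeR adjusted p among the 4 time points was 0.82. The gene shares 131 bp (3.21% of its exons) with Mybbp1a on the other strand.

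Sgpl1, on chromosome 10 (chr10:61098642-61147703, minus strand), encodes the lyase that breaks S1P down for good. Its means were 686 ± 218 at ZT1, 492.96 ± 257 at ZT7, then 471 ± 85.7 at ZT13 and 548 ± 313 at ZT19 (SD, n = 5), with single libraries from 192 to 981. All time points overlapped, and the edgeR adjusted p among them was 0.789. Per kb, Spns2 exceeded Sgpl1 in 20 of 20 libraries, by a mean log2 ratio of 2.64 ± 0.47 (SD, n = 20).

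S1pr1, on chromosome 3 (chr3:115710433-115715072, minus strand), encodes the Gi-coupled receptor that steadies endothelial junctions and that lymphocytes use to leave tissues. Its normalized counts were 4033, 4269, 4204, 3128 and 3295 at ZT1 and 3550.4, 7002, 2668, 3340.5 and 2936 at ZT7. They were 3068, 6229.7, 3035, 4405 and 6766 at ZT13 and 3529.9, 6027, 5004, 3290.3 and 3569 at ZT19. No time point stood apart, and no library fell under 2668.

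The highest libraries of S1pr1 at ZT7 and ZT13 were ZT7 replicate 2 and ZT13 replicate 5, and the part of their high on-gene share was not tested. The means ran from 3786 ± 535 at ZT1 to 4701 ± 1742 at ZT13, a ratio of 1.24. The fitted log2 difference between these was 0.31 (SE 0.34), and the edgeR adjusted p among the 4 time points was 0.921. Without both libraries the means were 3124 ± 397 at ZT7 and 4184 ± 1506 at ZT13 (SD, n = 4), and the ratio of 1.37 then lay between ZT19 and ZT7.

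S1pr3, on chromosome 13 (chr13:51408639-51422797, plus strand), couples to Gi, Gq and G12/13 and is best known from smooth muscle and blood endothelium. Its normalized counts were 71.7, 23.5, 36.1, 60.4 and 19.2 at ZT1, 0, 0, 59.2, 75.8 and 122 at ZT7, then 34.7, 9.54, 49.6, 67.2 and 0 at ZT13 and 0, 0, 38.1, 0 and 18.2 at ZT19. It was at 0 in 6 of 20 libraries, 3 of them at ZT19. A count of 0 in these libraries allows up to 0.648 to 3.87 normalized counts (3 reads, counting error only). The edgeR adjusted p among the 4 time points was 0.855, and its highest library had 95 reads. It shares 45 bp (1.01% of its exons) with Gm32834 on the other strand, not analysed here.

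**Figure D4:**
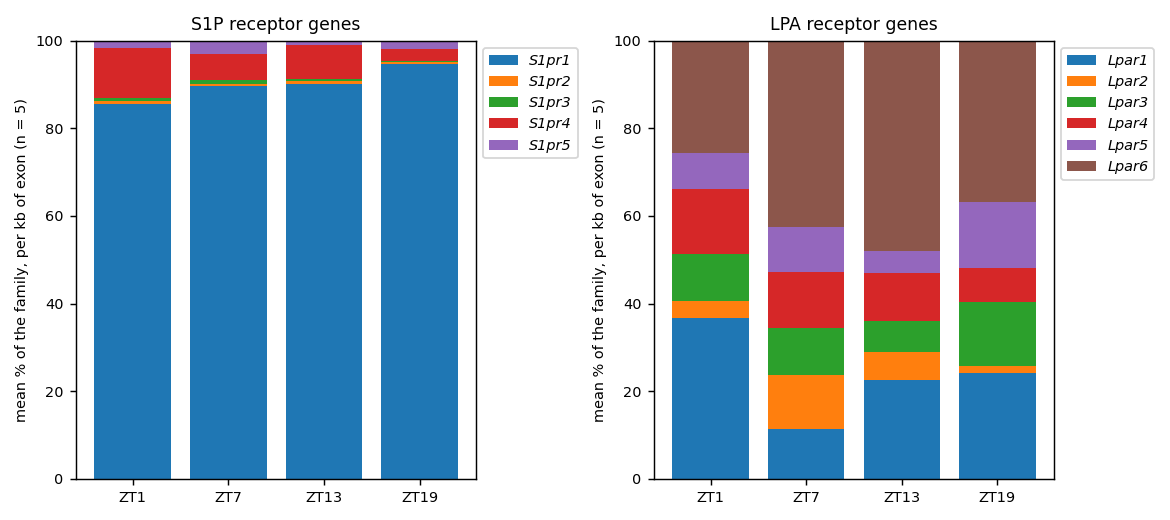
Mean share (% per kb of exon, n = 5 libraries) of each receptor gene within the S1P receptor family (left) and the LPA receptor family (right) at the 4 time points. S1pr1 makes up 85.7 to 94.8% of its family, while no LPA receptor makes up more than 47.9% of its own.

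Within the S1P receptor family the message was mostly S1pr1. Per kb it made up 90.0% ± 5.09 (SD, n = 20) of the 5 receptor genes, with means of 85.7% at ZT1, 89.6% at ZT7, then 90.0% at ZT13 and 94.8% at ZT19. S1pr4, known from lymphocytes, was second with 6.95% ± 4.84, and S1pr3 had 0.600% ± 0.641. S1pr4 had 398 ± 230 normalized counts at ZT1 and 96.1 ± 49.3 at ZT19 (SD, n = 5), with an adjusted p among the 4 time points of 0.186 by edgeR and 0.0334 by DESeq2. The leukocyte markers summed to 125 to 881 normalized counts at ZT1 and 3.57 to 214 at ZT19, 0 of 6 were called by edgeR, and their part in the course of S1pr4 was not tested. S1pr5 and S1pr2 had 26.3 ± 17.4 and 8.25 ± 7.92 normalized counts per kb.

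The LPA receptors had no such leader. Lpar6 made up 38.2% ± 16.7 of the family per kb (SD, n = 20), Lpar1 23.7% ± 18.4 and Lpar4 11.6% ± 9.83. The other three genes of the family were Lpar3 with 10.7% ± 8.4, Lpar5 with 9.67% ± 7.13 and Lpar2 with 6.12% ± 6.67. The spread between libraries was near the size of the shares themselves, except for Lpar6.

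Lpar1, on chromosome 4 (chr4:58435255-58553898, minus strand), encodes an LPA receptor of the EDG family. Its normalized counts were 258, 174, 1060.1, 170.2 and 421 at ZT1 and 47.9, 13.7, 42.3, 93.6 and 209.7 at ZT7. They were 101, 3.18, 27.8, 223 and 161 at ZT13 and 188, 181, 548, 19.3 and 128 at ZT19. ZT1 held the highest library and none under 170.2, but it overlapped every other time point, and ZT13 replicate 2 held only 3 reads.

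The mean of Lpar1 was 5.12 times as high at ZT1 as at ZT7, with a fitted log2 difference of 2.36 (SE 0.86). That ratio was 3.14 without ZT1 replicate 3 and 8.44 without ZT7 replicate 5. Among the 4 time points the unadjusted p was 0.0303 and the edgeR adjusted p 0.271. Within time points, Lpar1 moved with the fibroblast markers whose sums are given above, by Pearson r = 0.746 (n = 20, permutation p = 0.00286, adjusted p = 0.0792 over 40 relations) and Spearman rho = 0.561 (permutation p = 0.0211, adjusted p = 0.291). Without the 2 libraries farthest from the median of the marker list, r was 0.489, and with on-gene read share regressed out it was 0.760 (permutation adjusted p = 0.129). Against the LEC list, Lpar1 had r from -0.667 to -0.481 with each library left out in turn. With on-gene read share regressed out that r was -0.618 (permutation adjusted p = 0.147). Neither relation passed the correction, and the part of fibroblast RNA in the Lpar1 counts was not tested.

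Lpar4 and Lpar6 belong to the P2Y-like LPA receptors, which couple to G12/13 and are both expressed in endothelium. Lpar4, on chromosome X (chrX:106920625-106933900, plus strand), had 146 ± 136 normalized counts at ZT1, 69.8 ± 52.7 at ZT7, then 44.1 ± 11 at ZT13 and 52.5 ± 72 at ZT19 (SD, n = 5). Single libraries ranged from 1.28 to 382, both ends far from the medians, and the edgeR adjusted p was 0.606. Without ZT1 replicate 2 the ZT1 mean of Lpar4 was 87.0 ± 37.5, and without ZT19 replicate 4 the ZT19 mean was 22.1 ± 27.5 (SD, n = 4).

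Lpar6, on chromosome 14 (chr14:73237895-73243294, plus strand), lies within the span of Rb1 on the other strand and shares 408 bp (7.56%) of its exons with annotated Rb1 transcripts. It had 309.9 ± 58.4 normalized counts at ZT1, 319 ± 121 at ZT7, then 242 ± 78.8 at ZT13 and 367 ± 174 at ZT19. Its libraries ranged from 108 to 647, all time points overlapped, and the edgeR adjusted p was 0.784. Per kb, Lpar6 exceeded Lpar4 in 19 of 20 libraries and Lpar1 in 15 of 20. At ZT1 it was above Lpar1 in 2 of 5, with means of 57.4 ± 10.8 per kb for Lpar6 and 97.2 ± 87.1 per kb for Lpar1 (SD, n = 5), the latter 59.7 ± 27.4 without ZT1 replicate 3 (n = 4).

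**Figure D5:**
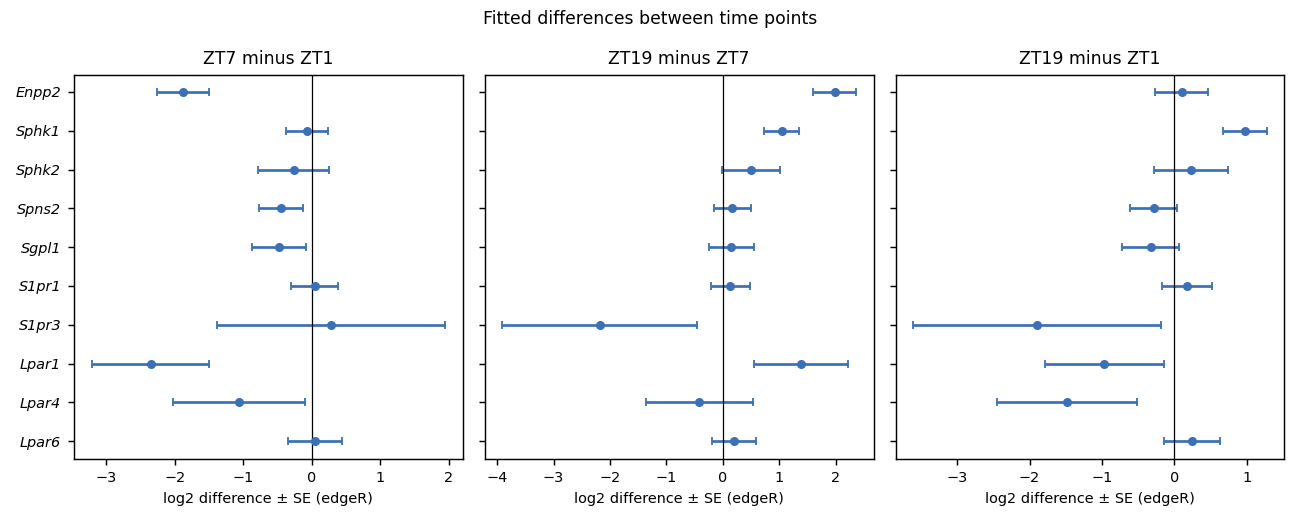
Fitted log2 differences with SE (edgeR, x axis) of the 10 genes for ZT7 minus ZT1, ZT19 minus ZT7 and ZT19 minus ZT1. Enpp2 lies at -1.88 and 1.98 in the first and second panels and at 0.10 in the last, a value whose sign turned in some alternative fits. S1pr3, Lpar1 and Lpar4 have the widest errors.

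The rest of the pathway was described by 56 further genes: 6 receptors, 11 genes of S1P turnover, 15 of LPA turnover, 5 of S1P export and carriage and 19 that couple the receptors to the cell. By edgeR, 0 of 56 were called among the 4 time points (9 at an unadjusted p under 0.05, 3 by DESeq2), where the shares of all genes were 15.7% unadjusted and 3.45% by DESeq2. For the 24-h curve 0 were called (4 unadjusted, 1 by DESeq2), against 9.23% and 0.741% of all genes. The 3 that DESeq2 called among the time points were Klf2 (adjusted p = 0.0299), the lipid phosphatase gene Ppap2a (0.0097) and S1pr4. In the 6 pairs edgeR called 0 as well, while between ZT1 and ZT19 13 had an unadjusted p under 0.05 (21.6% of all genes) and DESeq2 called 8 (10.5% of all). That count of 0 between ZT1 and ZT19 depended on single libraries: edgeR called 6 without ZT19 replicate 4 (902 of all genes), 1 without ZT13 replicate 5 (191) and 6 without ZT7 replicate 2 and ZT13 replicate 5 (1845, or 9.37%). Klf2, Ppap2a and S1pr4 are named here because of these values.

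Of the turnover genes named next, Ppap2a stood above S1pr1 (1368 per kb) by mean and the others below it. Among the genes of S1P turnover, Ppap2a and Ppap2b, whose ecto-phosphatases strip the phosphate from S1P and LPA outside the cell, had 1641 ± 851 and 969 ± 339 normalized counts per kb (SD, n = 20), and the ceramidase gene Asah1 264 ± 87.9. Among those of LPA turnover, Gde1 had 409.9 ± 192 per kb, Agpat2 323 ± 166 and Agpat4 225 ± 111. Both acyltransferases turn LPA into phosphatidic acid.

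Of the transporters beside Spns2, Abca1 had 354 ± 144 normalized counts per kb, Abcg2 349 ± 192 and Abcc1 34.6 ± 11.7. Mfsd2b, the S1P exporter of red cells and platelets, had 10.1 ± 6.55, and the S1P carrier gene Apom was at 0 in 9 of 20 libraries. Spns2, at 533 per kb, was by mean the higher of both dedicated S1P exporters. In the coupling list, Klf2, a flow-induced factor that drives S1pr1 in lymphocytes, had 2235 ± 1266 per kb, Gnai2 1643 ± 425 and Rac1 1018 ± 309. Cd69, which holds S1pr1 inside the cell, was at 0 in 10 of 20 libraries.

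Among each other, the 10 genes formed 45 pairs, and within time points 0 of 45 relations passed an adjusted p of 0.05 (4 at an unadjusted permutation p under 0.05). That for Spns2 and Sgpl1 was Pearson r = 0.647 (permutation p = 0.0256, adjusted p = 0.357) with Spearman rho = 0.684 (permutation p = 0.0108, adjusted p = 0.332), and r was 0.705 without the 2 libraries farthest from the median of Spns2. With on-gene read share regressed out it was r = 0.617 (permutation adjusted p = 0.536). Of 40 relations between the 10 genes and the LEC, blood endothelial, keratinocyte and fibroblast lists, 0 passed and 9 had an unadjusted permutation p under 0.05. Sphk1 against the blood endothelial list, whose highest marker was Emcn, had r = -0.482 (permutation p = 0.00396, adjusted p = 0.0792) and rho = -0.626 (permutation p = 0.00241, adjusted p = 0.0964), with r = -0.564 without the 2 farthest libraries. With on-gene read share regressed out it was r = -0.334 (permutation adjusted p = 0.337).

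For 4 of the genes, those with the most similar course across libraries were sought among the 19209 tested, by Pearson r of log2 normalized counts centred on each time point (20 libraries). For Enpp2 these were Trim47 (r = 0.81), Cast (0.80), Gramd1a (0.80), Pdia4 (0.80) and Carhsp1 (0.78). For S1pr1 they were Anxa6 (0.87), Slc25a46 (0.85), Psmd2 (0.85), Pim3 (0.85) and Tap2 (0.84). The Spns2 list was led by Gm20605 (0.87) and the desmosome gene Jup (0.86), followed by St6galnac4, LOC101056043 and Ctdp1. The Lpar1 list was Rab11fip4 (0.82), Mfi2 (0.80), Bbs1 (0.79), Ptgis (0.77) and Tbx15 (0.77). These are the extremes of many comparisons over libraries that share their depth differences, and they are given as a description.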

How the data were processed

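RNA of sorted dermal LECs was amplified as full-length cDNA (SMART-Seq v4) and made into Nextera XT libraries, which do not mark the strand. Per the labels, the authors mapped reads to mm10 with STAR and counted them with HTSeq 1.0.0; the deposited values are raw counts per gene symbol in 20 files, and the submitters' notes also name DESeq2 2.11.40.6. Whether counting used strand is not given in the sources used here. Rows that name no gene (no feature, ambiguous, not aligned, not unique) held 47.5 to 96.7% of all reads (median 90.0%) and were left out. Libraries were grouped by the time point in their labels, and the pools count as biological replicates.

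The count models were run in edgeR 4.0.16 under R 4.3.3 (TMM factors, filterByExpr with a minimum count of 10, quasi-likelihood F-test) over all 20 libraries, with 19209 genes tested and Benjamini-Hochberg adjustment over all of them at 0.05. Fits were made among the 4 time points, for a 24-h curve (cosine and sine terms) and for each pair. The common biological coefficient of variation was 1.00. Log2 values used a pseudocount of 1. Relations between genes were tested by 100000 permutations of libraries within time points, two-sided. Exon lengths and positions came from GENCODE M21 (GRCm38), found for 98.5% of symbols, 950 of them through an older symbol, and promoter windows from RefSeq. A gene with 3 counts made up 7.14e-06 to 6.7e-05% of a library, a floor that covers counting error only, since amplified cDNA has no molecular identifiers. The edgeR and DESeq2 fits were also run on simulated counts, and the outcome is not given here.

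The 10 genes, the pathway and marker lists and the tests were chosen with earlier results of these data known. Named are the 10 genes, all receptors of both families, pathway genes called by edgeR in any comparison (none), the 3 of each pathway list with the highest level per kb, the highest marker per list and, for Enpp2, S1pr1, Lpar1 and Spns2, the 5 genes with the highest centred r; other names were chosen after their values were seen. Alternatives were DESeq2 1.42.0 (likelihood ratio and Wald tests), RLE size factors, no filter, the log2 odds of a read lying on a gene as a covariate, the replicate number as a block, fits of only the pair compared, a pseudocount of 10, rank correlation, each library left out in turn and, chosen after seeing the data, ZT7 replicate 2 and ZT13 replicate 5 left out.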

Additional observations from a re-analysis of the deposited data

Results flagged for a closer look

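On the scale of log2(normalized count + 1), in 3 of 40 groups (10 genes at 4 time points, 5 libraries each), a single library lay further from the others than Dixon's 95% critical value of 0.71 for 5 samples allows; chance gives about 1 in 20 groups. Enpp2 at ZT1 was low in replicate 4, whose gap to the next library was 0.803 of the range of the group. Sphk1 at ZT7 was high in replicate 2, with a gap of 0.763 of the range; its on-gene share stood apart from that of the other ZT7 libraries. Lpar6 at ZT13 was low in replicate 4, with a gap of 0.782 of the range. On the linear scale of normalized counts the gaps were 0.703 for Enpp2, 0.838 for Sphk1 and 0.688 for Lpar6, so that only Sphk1 of the 3 lay above 0.71.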

How the results depend on the processing

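Leaving out each library in turn gave 0 to 1 called of the 10 genes among the 4 time points and between ZT7 and ZT19, and 0 to 1 of the 56 pathway genes among the time points (Gnaq, without ZT19 replicate 4). Of all genes, 30 to 178 were then called among the time points and 0 to 4 between ZT7 and ZT19. DESeq2 called 1 of the 10 for the 24-h curve, 1 between ZT1 and ZT7, 1 between ZT1 and ZT19 and 2 between ZT7 and ZT19, and of the pathway genes 3 among the time points and 1 for the curve. Of all genes DESeq2 called 3.45% among the time points and 0.741% for the curve. Its shares were 0.113% between ZT1 and ZT7, 10.5% between ZT1 and ZT19 and 11.8% between ZT7 and ZT19. With on-gene read share as a further term (the share covariate) 1 of the 10 was called between ZT1 and ZT7, and 4 of all genes. Without ZT7 replicate 2 and ZT13 replicate 5, 2 of the 10 were called among the time points, 1 for the curve, 1 between ZT1 and ZT19, 2 between ZT7 and ZT19 and 1 between ZT13 and ZT19, and 2 pathway genes among the time points, 6 between ZT1 and ZT19, 2 between ZT7 and ZT19 and 5 between ZT13 and ZT19. In that fit 4.28% of all genes were called among the time points and 0.102% for the curve. The shares were 9.37% between ZT1 and ZT19, 12.1% between ZT7 and ZT19 and 10.6% between ZT13 and ZT19. With 1 library left out, these pairs had 0 to 6, 0 and 0 to 2 pathway genes called, and 0 to 902, 0 to 4 and 63 to 853 of all genes.

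The deviations of same-numbered libraries had a mean r of 0.174 between ZT1 and ZT13 and of -0.0384 to 0.072 in the other 5 pairs of time points, so the numbers were not taken to pair the libraries. In the fit with a replicate block, 0 of the 10 were called among the time points (Enpp2 adjusted p = 0.0702 by edgeR) and 31 of all genes.

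Directions turned for values that were not called. With the share covariate, the log2 difference from ZT7 to ZT19 was 5.23 for S1pr3 (-2.18 without it) and 0.75 for Lpar2 (-2.97), and that from ZT1 to ZT19 was -0.30 for Asah1 (0.35) and -0.11 for Rac1 (0.41). The Enpp2 difference from ZT1 to ZT19 was -0.62 with the share covariate, -0.10 without ZT1 replicate 4, -0.21 without ZT19 replicate 1 and -0.0025 without ZT19 replicate 2 (range with 1 library left out -0.21 to 0.41). The cause was not tested.

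Over all genes, 81 were called among the 4 time points, with 647 by DESeq2, 49 with the share covariate, 843 without both libraries and 30 to 178 with 1 library left out. For the curve 6 were called, with 82 by DESeq2, 3 with the covariate, 0 with the block, 20 without both and 0 to 10 with 1 left out. Between ZT1 and ZT7 there was 1, with 12 by DESeq2 and 4 with the covariate; between ZT1 and ZT13 4, with 71, 3 and, by RLE, 9; between ZT1 and ZT19 3, with 2192, 0, 24 by RLE, 1845 without both and up to 902 with 1 left out. Between ZT7 and ZT13 there were 18, with 89 by DESeq2, 5 in the fit of the pair, 1 without both and 2 to 36 with 1 left out; between ZT7 and ZT19 3, with 2576 by DESeq2 and 2378 without both; between ZT13 and ZT19 113, with 1998 by DESeq2, 54 with the covariate, 58 with the block, 32 in the fit of the pair, 2093 without both and 63 to 853 with 1 left out.

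The median of all genes in the ZT7 to ZT19 comparison was -0.20 (log2) under TMM and -0.43 under RLE scaling, where Enpp2 stood at 1.98 and 1.87; with the share covariate the median was 0.24 and Enpp2 1.33. S1pr3, Lpar4 and Lpar1 held 0 to 5 reads in their lowest libraries, among them the deepest library for S1pr3 and the second deepest for Lpar4.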
